A study of Mus musculus with 13 samples.

Results

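The levels of 10 growth factor and receptor genes that are known for their part in myelin repair were followed through the brain of the cuprizone (CPZ) mouse. They were 8 ligand genes, *Igf1*, *Igf2*, *Pdgfa*, *Fgf1*, *Fgf2*, *Cntf*, *Lif* and *Hgf*, and 2 receptor genes, *Igf1r* and *Lifr*. The genes were taken by symbol from the deposited annotation, where all 10 were found among 55401 named genes and no symbol was repeated.

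Bulk RNA-seq was performed on frozen brain hemispheres of male wild-type C57BL/6J mice, in 13 libraries. The 5 control (CTL) libraries came from mice on normal chow for 6 weeks, the 4 CPZ libraries from mice fed 0.3% cuprizone chow for 4 weeks, and the 4 recovery (RCV) libraries from mice given cuprizone for 4 weeks and normal chow for a further 2 weeks. Cuprizone is a copper chelator whose feeding leads to the loss of mature oligodendrocytes, and the comparison of the 3 groups addresses which genes change at peak demyelination and how far they return when myelin is repaired. CTL and RCV tissue was taken at week 6 and CPZ tissue at week 4, so diet cannot be told apart from the age at collection between CPZ and the other groups. Mice were 6 to 8 weeks old per the labels and about 10 weeks old per the methods. No group carried a transgene. The RCV titles start with "Veh", and the treatment field was used to group them. The protocol text counts 4 control, 3 CPZ and 3 recovery mice. The legend of the study's first figure counts 13 samples (5 control, 4 CPZ and 4 recovery), with bulk data for each. The 13 bulk libraries match that count and carry separate sample titles. No library is tied to a named mouse, so the p values measure the spread between libraries.

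Library totals ranged from 4605100 to 8197289 counts, with medians of 6545158 in CTL, 7468880 in CPZ and 5783463 in RCV. Whole-hemisphere RNA mixes many cell types, and fewer cells of a type cannot be told apart from less RNA per cell. All 16 microglia markers rose from CTL to CPZ, with a summed level of 431 to 512 CPM (counts scaled to library size) in CTL, 1524 to 3238 in CPZ and 660 to 903 in RCV. Of 15 markers of mature oligodendrocytes, 14 fell (summed level 4447 to 8355 CPM in CTL, 1896 to 3236 in CPZ and 5854 to 10001 in RCV). The summed level of 10 astrocyte markers was 4574 to 4991 CPM in CTL, 5326 to 6349 in CPZ and 5329 to 5979 in RCV. Of these, 5 passed the test as higher in CPZ than in CTL and none as lower. Their log2 fold changes ran from -0.25 (*Fgfr3*) to 2.43 (*Gfap*), and *Gfap* alone went from 165 to 890 CPM. The summed level of 10 neuron markers was 4330 to 5590 CPM, and no neuron, astrocyte, oligodendrocyte or microglia marker was at 0 in a whole group. The summed level of 10 choroid plexus markers varied within the groups, at 450 to 2879 CPM in CTL, 650 to 2459 in CPZ and 25.6 to 1504 in RCV. These choroid plexus markers were at their lowest in RCV 3 and RCV 4.

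Insulin-like growth factors act on the IGF1 receptor, and IGF-1 supports the survival and differentiation of oligodendrocyte precursor cells (OPCs). PDGF-AA drives OPC proliferation through PDGFRα, while FGF-2 is a mitogen for OPCs and holds back their differentiation. CNTF and LIF are cytokines of the IL-6 family that signal through gp130 and the LIF receptor to JAK and STAT3, and HGF acts through the receptor tyrosine kinase MET. In demyelinated tissue many of these factors are made by microglia, astrocytes and neurons. *Igf2*, in contrast, is expressed in the adult brain mainly by the choroid plexus and the meninges.

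Of the 10 genes, 9 had enough counts to be tested (a CPM above 1.49 in at least 4 libraries). *Igf1*, *Fgf2* and *Cntf* rose from CTL to CPZ at an adjusted p below 0.05, and no gene of the list fell. In this comparison, 7.66% of all 14985 genes tested rose and 2.5% fell. *Cntf* was kept by the filter only through its level in CPZ, so its call in this fit is not given as support. *Igf1*, *Fgf2* and *Pdgfa* were higher in CPZ than in RCV, where 5.13% of all genes were higher and 1.88% lower. Between RCV and CTL, none of the 9 genes passed the threshold with edgeR, DESeq2 or limma-voom (0.374% of all genes did with edgeR, in either direction). For 1 gene, *Pdgfa*, the unadjusted edgeR p was below 0.05, as it was for 6.2% of all genes. The median log2 fold change of the 9 genes was 0.05 for CPZ against CTL, 0.02 for RCV against CTL and 0.47 for CPZ against RCV, and that of all genes was -0.020, -0.004 and -0.007. The comparisons share their libraries, so the calls of one are not independent of those of another.

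**Figure D1:**
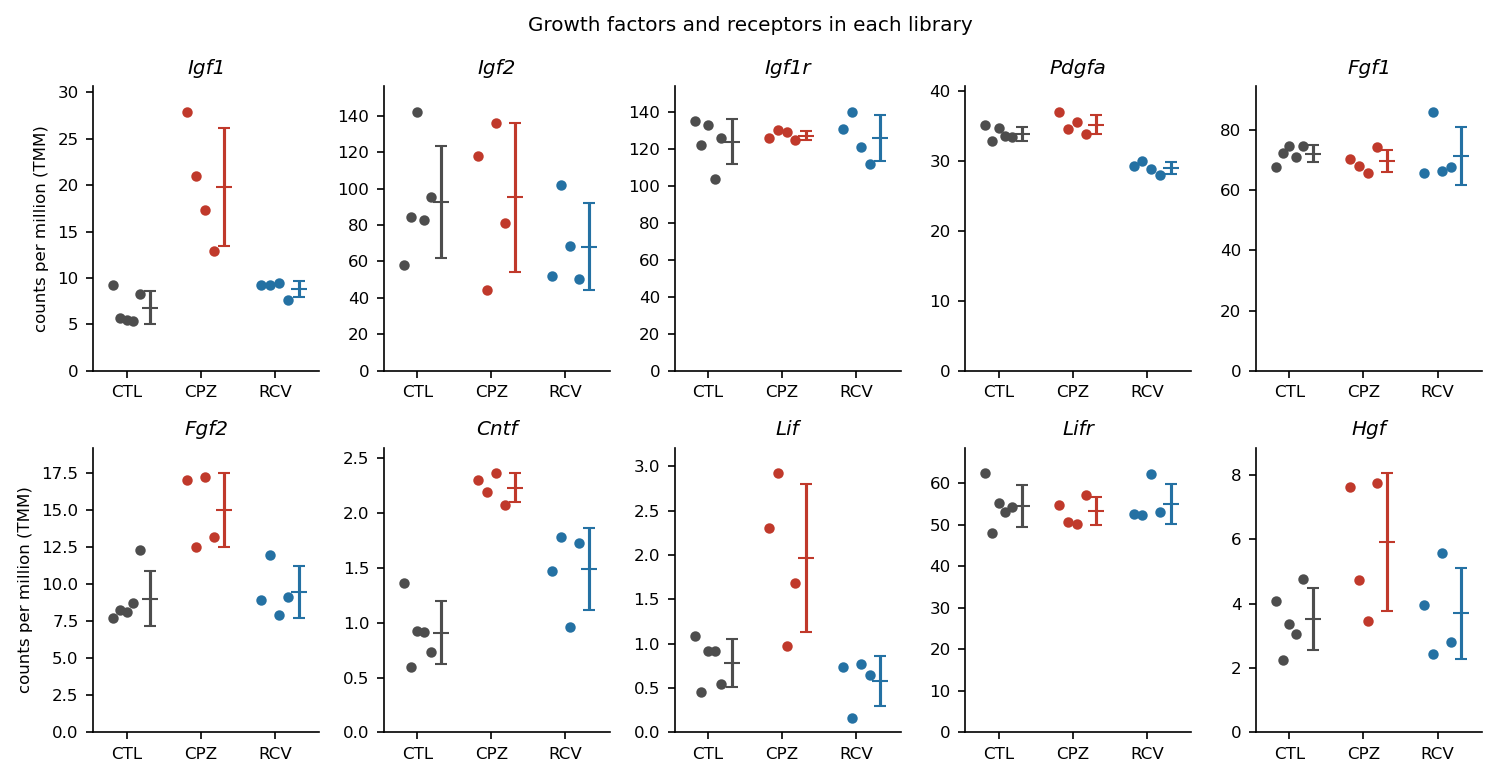
Level of each gene in CPM (scaled by TMM, axes from 0) in 5 CTL, 4 CPZ and 4 RCV libraries, with 1 point per library and the group mean ± SD to its right. The CPZ points of *Igf1*, *Fgf2* and *Cntf* lie above all CTL points, and the RCV points of *Pdgfa* lie below all points of the other groups.

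*Igf1* had the highest log2 fold change of the 9 tested genes in CPZ against CTL and against RCV. It lies on chr10:87858265-87937042 (plus strand, GRCm38) and encodes insulin-like growth factor 1. The 5 CTL libraries held 68, 38, 36, 35 and 45 *Igf1* counts, which came to 9.24, 5.7, 5.53, 5.35 and 8.25 CPM. The CPZ libraries held 194, 173, 125 and 100 counts, or 27.9, 21, 17.3 and 12.9 CPM, and the RCV libraries 63, 57, 49 and 35 counts, or 9.24, 9.23, 9.43 and 7.59 CPM. Every CPZ library was above every CTL and RCV library, while the RCV libraries lay inside or just above the CTL range. The mean level was 6.82 ± 1.8 CPM (SD, n = 5) in CTL, 19.8 ± 6.36 (n = 4) in CPZ and 8.87 ± 0.86 (n = 4) in RCV. CPZ exceeded CTL by a log2 fold change of 1.53 (SE 0.21, 95% interval 1.08 to 1.98, 2.9-fold, adjusted p = 0.000119) and RCV by 1.15 (SE 0.22, 0.67 to 1.62, adjusted p = 0.00489). The difference between RCV and CTL was 0.39 (SE 0.23, -0.11 to 0.88, adjusted p = 0.918), so a remaining rise of up to 0.88 was not distinguishable from none. The CPZ group had the widest spread, with CPZ 1 at the top and CPZ 4 at the bottom.

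In TPM, a unit that corrects for transcript length, *Igf1* was at 3.2 ± 0.572 in CTL, 15.3 ± 5.89 in CPZ and 4.87 ± 1.4 in RCV. The log2 fold change of CPZ over CTL was 1.89 with a pseudocount of 1 and 2.16 with 0.1 on this scale, against 1.53 for the counts, and all 3 fits called it. The number of counts that make up 1 TPM, examined after these values were seen, also differed. Relative to the median gene of each library, *Igf1* had 1.84 ± 0.579 counts per TPM in CTL (range 1.14 to 2.54), 1.09 ± 0.0955 in CPZ (1.01 to 1.22) and 1.6 ± 0.419 in RCV (1.23 to 2.2). The log2 ratio of CPZ to CTL was -0.76, and 0.0474% of 14781 genes had a lower one. RSEM sets the counts of a gene against the mean length of the transcripts to which they are assigned, and the annotation holds 8 *Igf1* transcripts of 510 to 7052 bases. With 35 to 68 counts in a CTL library, this split between transcripts rested on few reads, and whether transcript use or the estimate itself changed was not tested.

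*Igf1r*, the receptor of both IGFs, was measured on many more counts (515 to 1071 per library). Its mean level was 124 ± 12.3 CPM in CTL, 127 ± 2.41 in CPZ and between 112 and 140 CPM in the RCV libraries, and the ranges of the groups overlapped. The log2 fold change was 0.04 for CPZ against CTL (95% interval -0.13 to 0.20) and 0.02 for RCV against CTL (-0.14 to 0.19). On the TPM scale *Igf1* was at 13.7% of *Igf1r* in CTL, 57.6% in CPZ and 19.2% in RCV, and in CPM, which is not corrected for length, at 5.6, 15.2 and 7.26%. The log2 ratio of ligand to receptor was higher in CPZ than in CTL by 2.07 (exact two-sided permutation test, p = 0.00794, adjusted over 9 tests p = 0.0357), with no overlap between the groups, and by 1.44 in CPM (adjusted exact p = 0.0357), a scale added after the values were seen. Its difference from RCV, 1.59, also came without overlap, but 4 against 4 libraries allow no p under 0.0286, and the adjusted p was 0.0857. RCV exceeded CTL by 0.48 (exact permutation p = 0.0397, adjusted p = 0.0893).

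Microglia are a known source of *Igf1* in the demyelinated brain, and *Igf1* was set beside the 16 microglia markers. The markers rose by a median log2 fold change of 2.61 from CTL to CPZ, against 1.53 for *Igf1*, with a range of 0.97 to 3.68. *P2ry12* (0.97), *Tmem119* (1.18) and *P2ry13* (1.26) rose less than *Igf1*, and the other markers rose more. The sign of a difference from *Igf1* thus depends on the markers chosen. Relative to the mean log2-CPM of the markers, *Igf1* fell by 0.88 from CTL to CPZ (exact two-sided permutation test, p = 0.00794, adjusted p = 0.0357). In other terms, *Igf1* stood at 36% of the geometric mean of the markers in CTL (28.7 to 50.4% over libraries), 19.6% in CPZ (15.5 to 27.5%) and 27.4% in RCV (21.7 to 34.1%). On the TPM scale the difference was -0.22 (adjusted p = 0.452), and against the median of the markers it was -0.71 (adjusted p = 0.0857), so the call held only for the mean of log2-CPM values. Relative to the markers, RCV did not differ detectably from CTL (-0.40, adjusted p = 0.17) or from CPZ (CPZ minus RCV -0.48, adjusted p = 0.153), and the sign turned for the first with the median of the markers (0.12) and for the second with TPM (0.02).

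**Figure D2:**
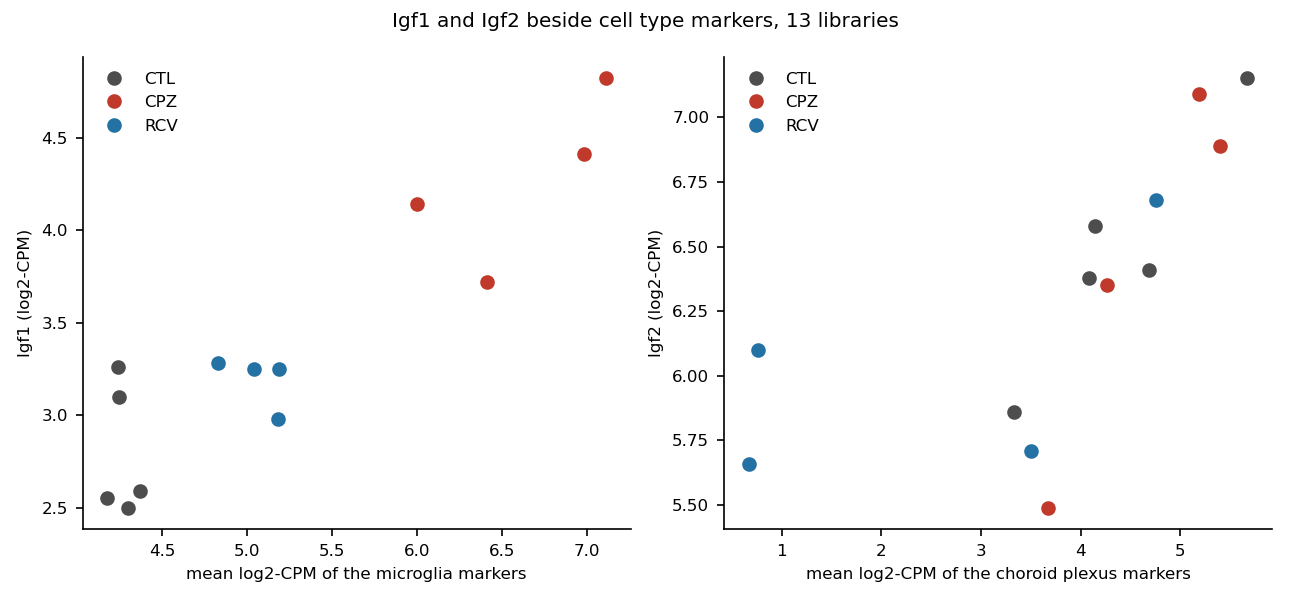
Left, *Igf1* (log2-CPM) against the mean log2-CPM of 16 microglia markers, and right, *Igf2* (log2-CPM) against the mean log2-CPM of 10 choroid plexus markers, with 1 point for each of the 13 libraries, coloured by group. *Igf1* and the microglia markers were both highest in CPZ. *Igf2* spread along the choroid plexus markers in CTL and CPZ, while RCV 3 and RCV 4 lay at the far left with *Igf2* inside the range of the other libraries.

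The 3 genes whose log2-CPM over the 13 libraries was most like that of *Igf1*, among 14142 genes, were *Eif2s2* (Pearson r = 0.959), a subunit of a translation initiation factor, *Cd53* (r = 0.956), a leukocyte tetraspanin, and *Bst2* (r = 0.956), an interferon-inducible membrane protein. After removal of the group means, r was still 0.76, 0.76 and 0.78. These correlations are descriptions over libraries that share their groups and depth.

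*Igf2*, the second IGF ligand, had the highest mean TPM of the 10 genes in each group, at 68.8 ± 23.5 TPM in CTL, 72.2 ± 30.4 in CPZ and 51.4 ± 17.9 in RCV. In TPM, *Igf2* was below *Pdgfa* in CTL 1, CPZ 2, RCV 1 and RCV 4. Its level was 57.9, 84.6, 142, 82.9 and 95.4 CPM in the CTL libraries, 118, 44.6, 136 and 81.3 in CPZ, and 51.9, 102, 68.5 and 50.3 in RCV. The groups overlapped, and the spread within each was wide. No contrast passed the test, and the intervals were wide, from -0.73 to 0.81 (log2) for CPZ against CTL and from -1.23 to 0.36 for RCV against CTL. These intervals hold changes as large as that of *Fgf2*, so such a change in *Igf2* was not detectable in these libraries.

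*Igf2* is expressed in the adult brain mainly by the choroid plexus and the meninges, and its level rose with the choroid plexus markers over the libraries other than RCV 3 and RCV 4. Over the 13 libraries, *Igf2* and the mean log2-CPM of the choroid plexus markers had a Pearson r of 0.71 (permutation p = 0.00475, adjusted over 2 relations 0.0095) and a Spearman rho of 0.89 (p = 0.00012, adjusted 0.00024). Without the 2 libraries farthest from the median of the markers, RCV 3 and RCV 4, r was 0.92, and r of the deviations from the group means was 0.66. The marker means of RCV 3 and RCV 4 were 0.76 and 0.67, against 3.33 or more elsewhere. They still held 68.5 and 50.3 CPM of *Igf2*, above CPZ 2 (44.6 CPM, marker mean 3.67). With 10 markers of meningeal fibroblasts, r was -0.06 (permutation p = 0.842) and rho 0.00 (p = 1). Both relations were examined after the values were seen, and the choroid plexus content of each hemisphere sample was not measured in any other way. Relative to the meningeal markers, *Igf2* differed by 0.16 between CPZ and CTL (exact permutation p = 0.659), by -0.73 between RCV and CTL (p = 0.119) and by 0.89 between CPZ and RCV (p = 0.114), and none of these passed the test. *Igf2* shares 62.8% of its exonic bases with *Gm49394*, a gene model on the same strand that held 8 counts in all libraries together.

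Among the 12 IGF partner genes listed (receptors, binding proteins and signalling adaptors), 11 were tested. From CTL to CPZ, 2 rose and none fell (7.66% and 2.5% of all genes tested did). *Igfbp3*, which encodes an IGF-binding protein, rose from 9.04 to 20.4 CPM (log2 fold change 1.17, SE 0.15, adjusted p = 3.66e-05) and was at 9.61 CPM in RCV, below CPZ by a log2 fold change of 1.09 (SE 0.16, adjusted p = 0.000531). *Igfbp5*, a further binding protein, rose from 221 to 339 CPM (0.62, SE 0.14, adjusted p = 0.00779) and stood at 287 CPM in RCV. The insulin receptor gene *Insr* (0.07, SE 0.07) and the IGF2 receptor gene *Igf2r* (-0.16, SE 0.06, adjusted p = 0.137) did not pass the test. *Igfbp2* was higher in CPZ than in RCV by 0.99 (SE 0.29, adjusted p = 0.0689) without overlap between the groups, and it passed the test in 4 of 22 alternative fits (lowest adjusted p 0.00502), among them those without CTL 1 or CTL 3.

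*Fgf2*, on chr3:37348346-37410108 (plus strand), encodes basic fibroblast growth factor. It was at 7.75, 8.25, 8.15, 8.72 and 12.3 CPM in the CTL libraries (53 to 67 counts), 17, 12.5, 17.2 and 13.2 CPM in CPZ (102 to 124 counts) and 8.94, 12, 7.89 and 9.11 CPM in RCV (41 to 74 counts). All CPZ libraries were above all others, although CTL 5 and RCV 2 came close to the lowest CPZ library. *Fgf2* rose from CTL to CPZ by a log2 fold change of 0.74 (SE 0.16, 95% interval 0.40 to 1.07, 1.66-fold, adjusted p = 0.00552) and was higher in CPZ than in RCV by 0.65 (SE 0.17, 0.28 to 1.01, adjusted p = 0.0301). RCV and CTL differed by 0.09 (-0.28 to 0.45). On the TPM scale neither call held (lowest log2 fold change 0.38 against CTL and 0.39 against RCV, highest adjusted p 0.443 and 0.506), and the difference from RCV was also lost when CPZ 1, CPZ 3, RCV 1, RCV 3 or RCV 4 was left out (adjusted p 0.0648 to 0.101). The counts of *Fgf2* per TPM moved in the other direction to those of *Igf1*, from 1.96 ± 0.395 in CTL to 2.26 ± 0.197 in CPZ.

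*Nudt6*, an antisense neighbour, shares 9.44% of the *Fgf2* exonic bases and held 6 to 22 counts per library, and the use of strand in counting is not given in the sources used here. The genes most like *Fgf2* over the libraries were *Tmem47* (r = 0.909), a membrane protein of cell junctions, *Creb3l1* (r = 0.896), a transcription factor of the endoplasmic reticulum, and *Cd274* (r = 0.895), which encodes PD-L1. After removal of the group means, r was 0.81, 0.70 and 0.67.

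*Fgf1*, acidic fibroblast growth factor, was measured on 312 to 574 counts per library and differed little between the groups. Its mean level was 72 ± 2.82 CPM in CTL, 69.5 ± 3.6 in CPZ and 71.3 ± 9.71 in RCV, where RCV 2 alone reached 85.9. The log2 fold change of CPZ against CTL was -0.05 with an interval from -0.21 to 0.11, which leaves out a change as large as that of *Fgf2*. On the TPM scale *Fgf1* (39.3 ± 2.43 in CTL) was far above *Fgf2* (4.09 ± 1.53 in CTL).

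Of 15 FGF partner genes, 12 were tested, and the changes were few. *Fgfr2*, a receptor gene of oligodendrocytes, fell from 71.8 CPM in CTL to 49.4 in CPZ (-0.54, SE 0.16, adjusted p = 0.0437), with overlap between the groups, and the call was lost in 15 of 22 alternative fits (log2 fold changes -0.64 to -0.43, adjusted p up to 0.143), including those without CTL 2, CTL 3, CTL 5, RCV 1, RCV 3 or any 1 of the CPZ libraries. *Fgfr3*, a receptor gene that is also on the astrocyte marker list, was lower in CPZ (104 CPM) than in RCV (132 CPM) by a log2 fold change of -0.34 (SE 0.09, adjusted p = 0.0338), a call that was lost in 9 of 22 alternatives (adjusted p up to 0.294), including those without CTL 5, CPZ 1, CPZ 2, CPZ 3, RCV 1 or RCV 3. The mature oligodendrocyte markers fell with *Fgfr2*, and their part in its decrease was not tested. *Fgfr1* (0.10, SE 0.08, adjusted p = 0.561), the sprouty genes and *Dusp6*, which are feedback inhibitors of FGF signalling, did not pass the test in any contrast, and *Spry2* passed between CPZ and RCV only without RCV 4 (adjusted p = 0.0319).

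*Pdgfa* encodes the A chain of platelet-derived growth factor and lies on chr5:138976014-138997370 (minus strand). It was at 35.2, 32.9, 34.7, 33.5 and 33.4 CPM in the CTL libraries, 37, 34.5, 35.5 and 33.8 in CPZ and 29.3, 30, 28.9 and 28 in RCV. All RCV libraries were below all CTL and CPZ libraries. The difference between CPZ and CTL was 0.05 (SE 0.06, 95% interval -0.07 to 0.18). CPZ exceeded RCV by a log2 fold change of 0.28 (SE 0.06, 0.14 to 0.41, 1.21-fold, adjusted p = 0.0135), and RCV was below CTL by a log2 fold change of -0.22 (SE 0.06, -0.35 to -0.09), which had an unadjusted p of 0.00222 and an adjusted p of 0.207. On the TPM scale the gap between CPZ and RCV shrank to 0.08 (adjusted p up to 0.724), with 45.1 ± 1.46 TPM in CPZ and 42.7 ± 3.81 in RCV. *Pdgfa* had 0.64 ± 0.0162 counts per TPM in CPZ and 0.565 ± 0.0447 in RCV.

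An antisense gene, *6330403L08Rik*, covers 26.1% of the exonic bases of *Pdgfa*. It held 99 to 221 counts per library and differed by -0.10 between CPZ and RCV (adjusted p = 0.776). The receptor of PDGF-AA and marker of OPCs, *Pdgfra*, differed by -0.02 between CPZ and CTL (SE 0.08, adjusted p = 0.944) and by -0.15 between CPZ and RCV (adjusted p = 0.347). None of the 5 PDGF partner genes passed the edgeR test with all libraries in any contrast. For 1 of them, *Pdgfb*, the unadjusted p was below 0.05 between CPZ and CTL (0.39, SE 0.13, adjusted p = 0.0799), as it was for 22.1% of all genes. *Pdgfb* passed in 4 of 22 alternatives (no filter, only these groups, without CPZ 3, without RCV 3, lowest adjusted p 0.0357). The genes most like *Pdgfa* over the libraries were *Slc16a9* (r = 0.890), *Prps2* (r = 0.877) and *Acot2* (r = 0.860), and after removal of the group means r was 0.40, 0.57 and 0.81.

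**Figure D3:**
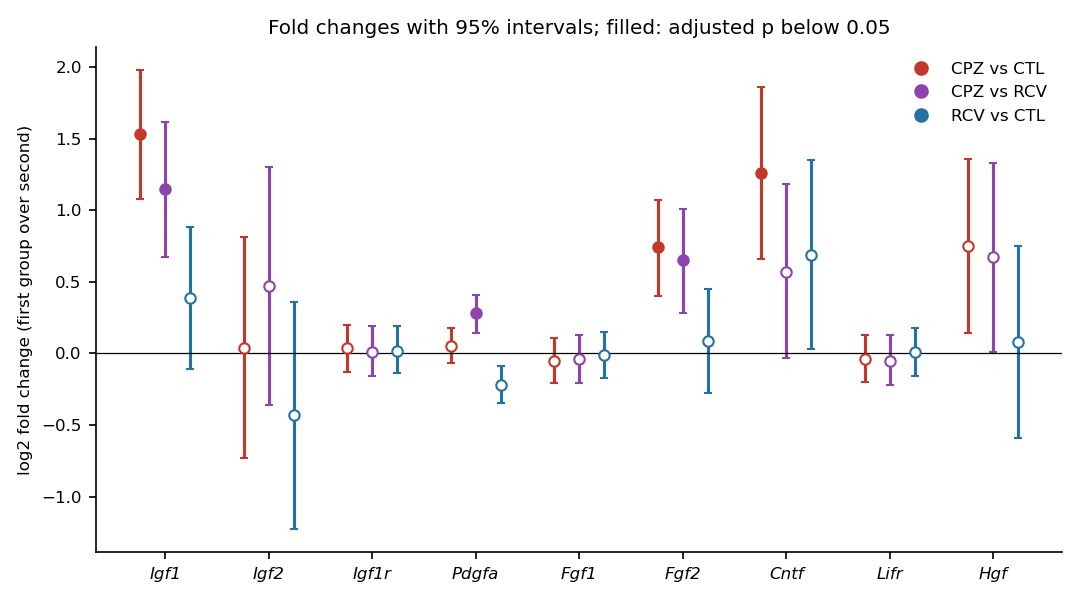
Log2 fold change of the 9 tested genes (first group over second, edgeR) with 95% intervals, for CPZ against CTL, CPZ against RCV and RCV against CTL. Filled points passed an adjusted p of 0.05: *Igf1*, *Fgf2* and *Cntf* against CTL, and *Igf1*, *Fgf2* and *Pdgfa* against RCV.

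*Cntf*, on chr19:12763660-12765632 (minus strand), encodes ciliary neurotrophic factor, a cytokine of astrocytes that supports oligodendrocytes and neurons. It was measured on few counts, with 10, 4, 6, 6 and 4 in the CTL libraries, 16, 18, 17 and 16 in CPZ and 10, 11, 5 and 8 in RCV. The 4 CPZ libraries were close to each other and above all others. *Cntf* was at 0.906 ± 0.287 CPM in CTL, 2.23 ± 0.13 in CPZ and 1.49 ± 0.376 in RCV. It was tested only because all 4 CPZ libraries exceeded the CPM filter (none of the CTL and 2 of the RCV libraries did), so its presence among the tested genes itself depended on a high level in CPZ. CPZ exceeded CTL by a log2 fold change of 1.26 (SE 0.28, 95% interval 0.66 to 1.86, 2.4-fold, adjusted p = 0.00674), and by 1.28 (adjusted p = 0.0171) with no filter on counts. RCV lay between the other groups, at 0.69 above CTL (SE 0.31, adjusted p = 0.815) and 0.57 below CPZ (SE 0.29, adjusted p = 0.294), and neither difference passed the test. The SE and intervals were derived from the fold change and the F statistic, and at these low counts they can be too narrow. For RCV against CTL the 95% interval of 0.03 to 1.35 left out 0, although the unadjusted edgeR p was 0.0551. *Cntf* shares 847 exonic bases, 78.9% of its total, with *Zfp91* on the same strand. *Zfp91* held 650 to 1323 counts per library and differed by 0.02 between CPZ and CTL (SE 0.08, adjusted p = 0.934), and how the counting divided shared reads between these genes cannot be seen in the tables. *Cxcl16* (r = 0.949), a chemokine gene, *Myo1f* (r = 0.946), a myosin gene of immune cells, and *Gpr183* (r = 0.943), an oxysterol receptor gene, were the most like *Cntf* over the libraries, with r of 0.77, 0.82 and 0.72 after removal of the group means.

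*Lif*, on chr11:4257557-4272514 (plus strand), encodes leukaemia inhibitory factor and did not reach the filter. Its counts were 8, 3, 6, 6 and 3 in CTL, 16, 24, 7 and 13 in CPZ and 5, 1, 4 and 3 in RCV. The mean level was 0.785 ± 0.272 CPM in CTL, 1.97 ± 0.835 in CPZ and 0.579 ± 0.282 in RCV, and CPZ 3 lay within the CTL range. When no filter was applied, *Lif* was higher in CPZ than in CTL by a log2 fold change of 1.31 (SE 0.42, edgeR adjusted p = 0.06) and higher than in RCV by 1.78 (SE 0.49, adjusted p = 0.0256). Its 3 libraries above the filter level were all CPZ, so it entered a fit filtered on counts only through the group where it was high. No call from such a fit is given as support. The TPM fits kept genes with a TPM of at least 1 in 4 libraries, and *Lif* entered them through CPZ libraries and RCV 4. On the TPM scale the value of RCV 4 was 2.37 on 3 counts, above that of CPZ 4 (2.03) on 13 counts, so TPM values at this depth do not order the libraries.

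RefSeq (GRCm38.p6) promoter sequences were read for the upstream 250 bases of annotated starts, in search of the AP-1 motif TGANTCA and the STAT motif TTCNNNGAA, which read the same on both strands. Windows of 9 of the 10 genes were read, 15 in all. *Fgf1* was left out of this search, so whether its windows hold either motif was not tested. The AP-1 motif was found in 1 window each of *Igf1*, *Cntf* and *Lif*, and 6.75% of 32851 promoter windows of all genes hold it. The STAT motif was in none of the 15 windows and in 7.02% of all. The *Igf1* window lies within annotated exons and is not shown. The windows of *Cntf* (chr19:12765633-12765882, minus strand) and *Lif* (chr11:4257318-4257567, plus strand), the cytokine genes with the lowest counts, are given from 5′ to 3′ with the motif in capitals, ending at the base before the start. A match in letters is not evidence that a factor binds.
Cntf: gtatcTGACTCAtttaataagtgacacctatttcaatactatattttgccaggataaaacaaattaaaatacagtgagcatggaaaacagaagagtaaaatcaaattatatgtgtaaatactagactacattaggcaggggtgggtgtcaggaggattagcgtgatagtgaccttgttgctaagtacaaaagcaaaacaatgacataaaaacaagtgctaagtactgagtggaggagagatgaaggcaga
Lif: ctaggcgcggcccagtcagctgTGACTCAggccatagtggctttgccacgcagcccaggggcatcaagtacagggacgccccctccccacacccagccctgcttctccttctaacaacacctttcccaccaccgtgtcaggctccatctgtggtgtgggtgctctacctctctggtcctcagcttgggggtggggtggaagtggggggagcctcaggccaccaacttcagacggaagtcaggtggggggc
In the *Cntf* window the motif begins 245 bases before the start, and in the *Lif* window 228 bases before it.

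*Lifr*, the receptor subunit that LIF and CNTF share, was at 54.5 ± 5.13 CPM in CTL, 53.2 ± 3.34 in CPZ and 55 ± 4.81 in RCV, on 244 to 458 counts per library. The groups overlapped, and the log2 fold change was -0.04 for CPZ against CTL (95% interval -0.20 to 0.13) and 0.01 for RCV against CTL (-0.16 to 0.18). The CNTF receptor gene *Cntfr* was likewise within a narrow range (-0.01, SE 0.08, adjusted p = 0.959). In TPM, *Lifr* was less even, at 16.5 ± 3.67 in CTL, 13.2 ± 1.57 in CPZ and 19 ± 4.88 in RCV. Over 22 alternatives its log2 fold change went down to -0.29 for CPZ against CTL and -0.49 for CPZ against RCV, and none called it. *Lifr* had 2.89 ± 0.653 counts per TPM in CTL, 3.32 ± 0.293 in CPZ and 2.51 ± 0.646 in RCV.

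Of the 14 other genes listed for the CNTF and LIF pathway, 11 were tested, and 6 rose from CTL to CPZ and none fell, with a median log2 fold change of 0.32 over the list. Of all genes tested, 7.66% rose and 2.5% fell, and the list was chosen with earlier results of these data known. *Osmr*, the oncostatin M receptor gene, rose from 4.24 to 32 CPM (log2 fold change 2.91, SE 0.23, adjusted p = 1.28e-06) and was at 8.81 in RCV. *Clcf1*, a further ligand of the CNTF receptor, rose from 1.12 to 4.67 CPM (2.06, SE 0.39, adjusted p = 0.00189). *Socs3*, the feedback inhibitor induced by STAT3, rose from 2.58 to 8.72 CPM (1.75, SE 0.28, adjusted p = 0.000456), and *Stat3* itself from 54.3 to 76.7 CPM (0.50, SE 0.08, adjusted p = 0.000733). *Il6ra*, the IL-6 receptor gene, rose from 6.2 to 14.5 CPM (1.22, SE 0.16, adjusted p = 7e-05). The rise of *Il6st*, which encodes the shared signalling subunit gp130, was small (log2 fold change 0.27, SE 0.07, adjusted p = 0.0319), and its call was lost in 7 of 22 alternative fits (adjusted p up to 0.105), among them those on TPM and those without CTL 1, CTL 4, CPZ 1, CPZ 2 or CPZ 4.

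Of these 6 genes, 3 were also higher in CPZ than in RCV, as were 5.13% of all genes tested. They were *Osmr* (1.85, SE 0.23, adjusted p = 0.000352), *Il6ra* (0.98, SE 0.17, adjusted p = 0.00226) and *Socs3* (1.45, SE 0.30, adjusted p = 0.00708). The call of *Socs3* was lost on TPM (log2 fold change down to 0.98, adjusted p up to 0.0885). *Clcf1* (1.22, SE 0.39, edgeR adjusted p = 0.0782) and *Stat3* (0.27, SE 0.09, adjusted p = 0.0911) were higher in CPZ without overlap. They passed in 3 of 21 and 2 of 22 alternatives. *Il6st* was higher by 0.20 (adjusted p = 0.177), with overlap. *Osmr* in RCV was above CTL in every library (1.06, SE 0.27), with an adjusted p of 0.15 by edgeR and of 0.0116 by the DESeq2 Wald test. The genes of the ligands *Il6*, *Il11* and *Osm* were too low to be tested. The microglia markers and 5 of the 10 astrocyte markers also rose from CTL to CPZ, and their part in the changes of these genes was not tested.

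*Hgf* encodes hepatocyte growth factor and lies on chr5:16553495-16620152 (plus strand). It was at 4.08, 2.25, 3.38, 3.06 and 4.77 CPM in the CTL libraries (15 to 30 counts), 7.63, 4.74, 3.47 and 7.75 in CPZ (25 to 60 counts) and 3.96, 2.43, 5.58 and 2.82 in RCV (13 to 29 counts). CPZ 1 and CPZ 4 were above all other libraries, and CPZ 2 and CPZ 3 lay within the CTL range. The log2 fold change was 0.75 for CPZ against CTL (SE 0.29, 95% interval 0.14 to 1.36, adjusted p = 0.122) and 0.67 for CPZ against RCV (SE 0.31, adjusted p = 0.251). Neither passed the test with all libraries, and without CPZ 3 the first did (0.94, adjusted p = 0.0457).

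Of 7 HGF partner genes, 6 were tested and 2 rose from CTL to CPZ, as did 7.66% of all genes tested. *St14*, which encodes matriptase, a protease that can activate HGF, rose from 1.08 to 7.52 CPM (log2 fold change 2.79, SE 0.45, adjusted p = 0.000659). In RCV *St14* was at 2.67 CPM, below CPZ by a log2 fold change of 1.49 (SE 0.44, edgeR adjusted p = 0.0558) without overlap. This difference passed in 6 of 21 alternatives. *Spint1*, which encodes an inhibitor of HGF-activating proteases, rose from 2.52 to 8.15 CPM (1.71, SE 0.38, adjusted p = 0.00812) and was higher in CPZ than in RCV by 1.57 (SE 0.41, adjusted p = 0.0324), the latter call being lost in 7 of 21 alternatives (adjusted p up to 0.111), among them those without CPZ 1, CPZ 2, RCV 1 or RCV 3. The receptor gene *Met* did not pass the test (0.20, SE 0.25, adjusted p = 0.727).

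**Figure D4:**
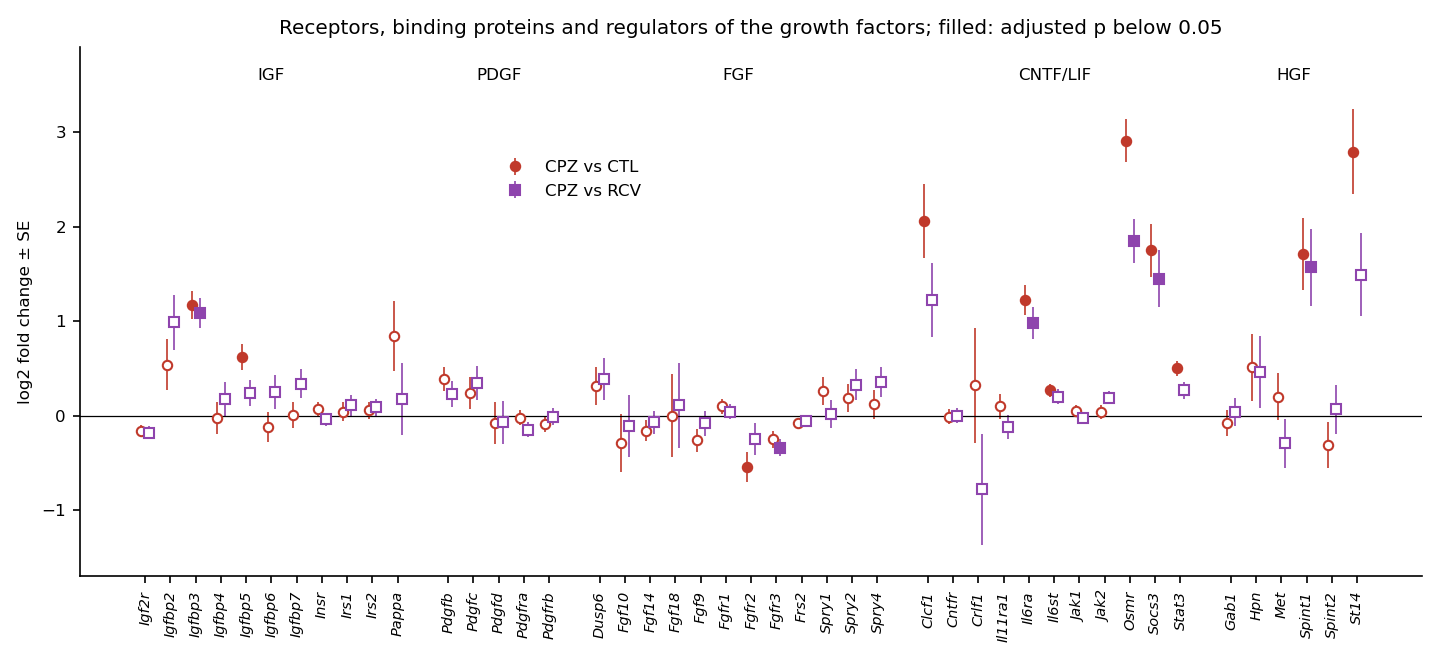
Log2 fold change ± SE (edgeR) of the 45 tested receptors, binding proteins and regulators, by family, for CPZ against CTL (circles) and CPZ against RCV (squares). Filled symbols passed an adjusted p of 0.05, and *Osmr* (2.91) and *St14* (2.79) were the highest.

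Over all families, 45 of 53 partner genes were tested. Between CPZ and CTL, 10 were higher and 1 was lower in CPZ (7.66% and 2.5% of all genes), and between CPZ and RCV 5 were higher and 1 was lower (5.13% and 1.88% of all genes). Between RCV and CTL none passed the edgeR test, against 7 with an unadjusted p below 0.05 (6.2% of all genes had one), and 1 (*Osmr*) passed with DESeq2 and none with limma-voom.

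By TPM, which allows levels to be compared between genes, the order in CTL was *Igf2*, *Pdgfa*, *Fgf1*, *Igf1r*, *Lifr*, *Fgf2*, *Igf1*, *Hgf*, *Cntf* and *Lif*. *Igf2* and *Pdgfa*, *Pdgfa* and *Fgf1*, *Igf1r* and *Lifr*, and the run from *Fgf2* to *Cntf* had overlapping ranges between neighbours, whereas *Fgf1* was above *Igf1r*, *Lifr* above *Fgf2* and *Cntf* above *Lif* in every library. *Igf1* stood 7th in CTL, 5th in CPZ, between *Igf1r* (25.2 ± 2.33 TPM) and *Lifr* (13.2 ± 1.57 TPM), whose ranges it overlapped, and 6th in RCV. By group mean, the first 4 genes kept their places in all 3 groups. The ranges of *Igf2* and *Pdgfa*, and of *Pdgfa* and *Fgf1*, overlapped in each group.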

How the data were processed

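Bulk RNA-seq was performed on 13 mouse brain hemisphere libraries. The authors deposited estimated counts per gene, TPM values and a gene annotation. The submitters' processing notes name STAR, RSEM and mm10, without versions or a strand setting. Of the deposited expected counts, 4.45% were not whole, and they were rounded before fitting. The 92 spike-in rows held 0 counts and were left out.

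Genes were filtered with filterByExpr (14985 kept), scaled by TMM and tested in one fit of the 3 groups with the robust quasi-likelihood F test of edgeR 4.0.16 in R 4.3.3, with Benjamini-Hochberg adjustment over all genes (threshold 0.05). The prior count for log2-CPM was 2. Ratios (*Igf1* to microglia markers, *Igf2* to meningeal markers, *Igf1* to *Igf1r*) were tested by exact two-sided permutation, with adjustment over 9 tests. TPM ratios of *Igf1* to *Igf1r* used a pseudocount of 0.1. The alternatives were DESeq2 1.42.0 (size factors, Wald test), limma-voom (limma 3.58.1), limma on log2 of the deposited TPM with a pseudocount of 1 or 0.1, other count filters, fits of only the groups compared, a replicate block, a minimum log2 fold change of 0.25 and the removal of each library, and, added after the data were seen, the ratio of *Igf1* to *Igf1r* in CPM.

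The 10 genes, the 53 partner genes and the marker lists were chosen with earlier results of these data known. The text names all 10 genes, each partner gene that passed a test (others are named as examples of those that did not), and, for each gene that passed, the 3 genes with the highest correlation over the libraries among genes whose mean log2-CPM reached 1. Positions are from GENCODE M21 (GRCm38), which held 98.1% of the identifiers. Libraries of one group differed by more than counting error (chi-square per gene 4.23 to 16.3 against 1). Protein sequences were not used here.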

Additional observations from a re-analysis of the deposited data

Results flagged for a closer look

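Among 39 groups of values examined, 7 held a library that stood apart from the others of its group by Dixon's test, which chance alone gives in about 1 of 20 groups. On the log2-CPM scale, *Igf1* was at 2.98 in RCV 4, against 3.25 to 3.28 in the other RCV libraries. *Fgf1* was at 6.43 in RCV 2 (others 6.04 to 6.09), *Lifr* at 5.97 in RCV 3 (others 5.71 to 5.73) and *Fgf2* at 3.65 in CTL 5 (others 3.01 to 3.17). *Lif* was at -1.10 in RCV 2 (others -0.07 to 0.10), where it rested on 1 count. *Igf2* relative to the meningeal fibroblast markers was at 3.34 in CPZ 2 (others 4.41 to 4.62) and at 4.54 in RCV 2 (others 2.83 to 3.11). Their causes were not tested.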

How the results depend on the processing

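*Igf1* passed the test in all 22 alternatives against both CTL and RCV. *Cntf* passed against CTL in the 21 that held it, although with all libraries it is over the filter level in none of CTL. Fits with a filter on counts kept *Cntf* only through its level in CPZ, so its calls there are not given as support. With limma on log2 TPM, 1 of the 10 genes was higher in CPZ than in RCV instead of 3, under either pseudocount. Leaving out 1 library gave 3 to 5 genes that rose from CTL to CPZ, with 5 only without CPZ 3, where *Hgf* was added and *Lif*, with its lowest CPZ library gone, reached the filter. Over the 8 alternatives that held *Lif*, its adjusted p for CPZ against CTL was 0.0185 to 0.255, below 0.05 without CPZ 3 and without RCV 2. In both of these fits *Lif* passed the filter only through CPZ libraries, so its calls there are not given as support. Of the partner genes, 7 rather than 11 passed between CPZ and CTL with at least 10 counts in every library (fewer genes tested), 1 rather than 0 between RCV and CTL with the DESeq2 Wald test, and 3 rather than 6 between CPZ and RCV with log2(TPM + 0.1). Correlations of same-numbered libraries ran from -0.20 to 0.14, and those of differently numbered ones from -0.205 to 0.265. Pairing by replicate number was thus not seen, although this check cannot exclude it. With a replicate block and without CTL 5, 3 genes rose from CTL to CPZ and 3 were higher in CPZ than in RCV, as without it, and 10 and 5 partner genes passed.

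Relative to the microglia markers, *Igf1* in CPZ against CTL was -0.71 with their median and -0.22 with TPM, neither past the threshold, and -1.04 to -0.75 without 1 library. In RCV against CTL it was 0.12 with the median, and in CPZ against RCV 0.02 with TPM. *Igf1* relative to *Igf1r* was 1.86 to 2.21 higher in CPZ than in CTL without 1 library. In CPM this ratio differed by 1.44 between CPZ and CTL. With 1 library of either group removed, the exact test allows no p under 0.0286 (4 against 4) or 0.0179 (3 against 5), and the adjusted p above 0.05 that resulted says nothing about stability.

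Changes of sign were seen for log2 fold changes near 0. *Igf2* in CPZ against CTL was -0.02 with limma-voom. *Fgf1* was 0.02 in CPZ against CTL and 0.02 in CPZ against RCV on the TPM scale, *Fgf2* in RCV against CTL -0.01 with TPM, and *Lifr* in RCV against CTL -0.00034 with no filter. Without 1 library, *Igf1r* was -0.02 to 0.07 (CPZ against CTL), -0.03 to 0.07 (RCV against CTL) and -0.03 to 0.07 (CPZ against RCV), *Igf2* -0.18 to 0.28 (CPZ against CTL), *Fgf1* -0.11 to 0.03 (RCV against CTL) and -0.08 to 0.06 (CPZ against RCV), *Fgf2* -0.05 to 0.21 (RCV against CTL), *Lifr* -0.08 to 0.02, -0.05 to 0.06 and -0.08 to 0.02 in the same 3 contrasts, and *Hgf* -0.17 to 0.25 (RCV against CTL). Causes were not tested. *Cntf* and *Lif* had the fewest counts, and *Igf2* the largest SE of the tested genes.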
